A study of Mus musculus with 8 samples.

Results

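Ganciclovir given after paclitaxel was compared with paclitaxel alone in coronal brain sections of p16-3MR mice. The comparison holds the 2 sections labelled PTX+GCV (ganciclovir, GCV, after paclitaxel, PTX) and the 2 labelled PTX, which are 4 of the 8 sections of the series. It uses 10907 of 21328 spots, namely those with 200 or more detected genes and at most 30% of their UMIs (unique molecular identifiers, each a counted RNA molecule) from mitochondrially encoded genes, and the UMIs of these spots were summed per section.

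All 8 sections are labelled male, 9-10 months of age and wild-type p16-3MR. In such mice the promoter of p16 drives a fusion protein that carries a viral thymidine kinase, so that the prodrug GCV is made toxic where that promoter is active. The transgene itself was not among the features counted. PTX was injected at 5 mg/kg per day in 2 cycles of 5 days, and after a recovery period the mice received vehicle (the PTX group) or GCV at 25 mg/kg per day, also for 5 days in each of 2 cycles. Brains were taken 6 months after PTX from mice perfused with saline buffer. The other 4 sections come from mice given only vehicle (DMSO and saline, Control) and from mice labelled PTX+ABT263 (1.5 mg/kg of ABT263 per day after PTX), and they enter the fits as a source of the spread between sections. Sex-linked genes in both sections labelled PTX+ABT263 go against their male label, so whole-section counts are also given without that pair. The labels do not say whether the sections of a group come from separate mice, so p-values measure the spread between these sections, which may be technical.

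The sections held 42886400.0 and 38112160.0 UMIs in PTX (2558 and 2735 spots) and 26275532 and 38561349 UMIs in PTX+GCV (2775 and 2839 spots). The median spot held 15716 and 13442 UMIs in PTX and 9006 and 12657 in PTX+GCV, so PTX+GCV section 1 was the shallowest of the 4. All 8 sections carry 1 batch label. Any 2 sections share between 1117 and 2368 spot barcodes, because a barcode marks a position on the array and not a cell.

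A spot covers several cells, and a coronal section cuts through many brain regions at once. Which nuclei it holds depends on its level from front to back. In the hypothalamus the neurons that make vasopressin (Avp) and oxytocin (Oxt) lie mainly in the paraventricular and supraoptic nuclei, while those that make melanin-concentrating hormone (Pmch) and orexin (Hcrt) lie in the lateral hypothalamus further back. The choroid plexus, a secretory tissue inside the ventricles, makes transthyretin (Ttr) at very high levels. The labels do not give the level of a section, and its part in the differences below was not tested. In sums of this kind, fewer cells of a type and less RNA per cell cannot be told apart.

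Spots of all 8 sections were clustered by expression into 12 regions, of which 9 could be named by their marker genes. Thalamus was led by Prkcd, Shox2 and Tcf7l2, striatum by Adora2a and Rgs9, hippocampus by Spink8 and C1ql2, hypothalamus by Pmch, Hcrt, Oxt and Avp, fiber tracts by Mal and Mog, choroid plexus by Ttr, habenula by Gng8 and Gpr151, meninges by Myoc and Ptgds, and isocortex by Lamp5, Fezf2 and Ighm among others. A further region, led by Baiap3, Nts and Ucn3, also carried hypothalamic markers and was kept apart. The remaining regions are called by their leading genes, Ccn3, Lypd1 and Kcng1 in one and Six3, Spp1 and Pvalb in the other. The last of these formed a narrow strip between thalamus and fiber tracts in each compared section, and the region led by Ccn3 lay at the surface beside the isocortex.

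In each compared section the thalamus lay between hippocampus and hypothalamus, with the striatum arching along the fiber tracts.

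**Figure D1:**
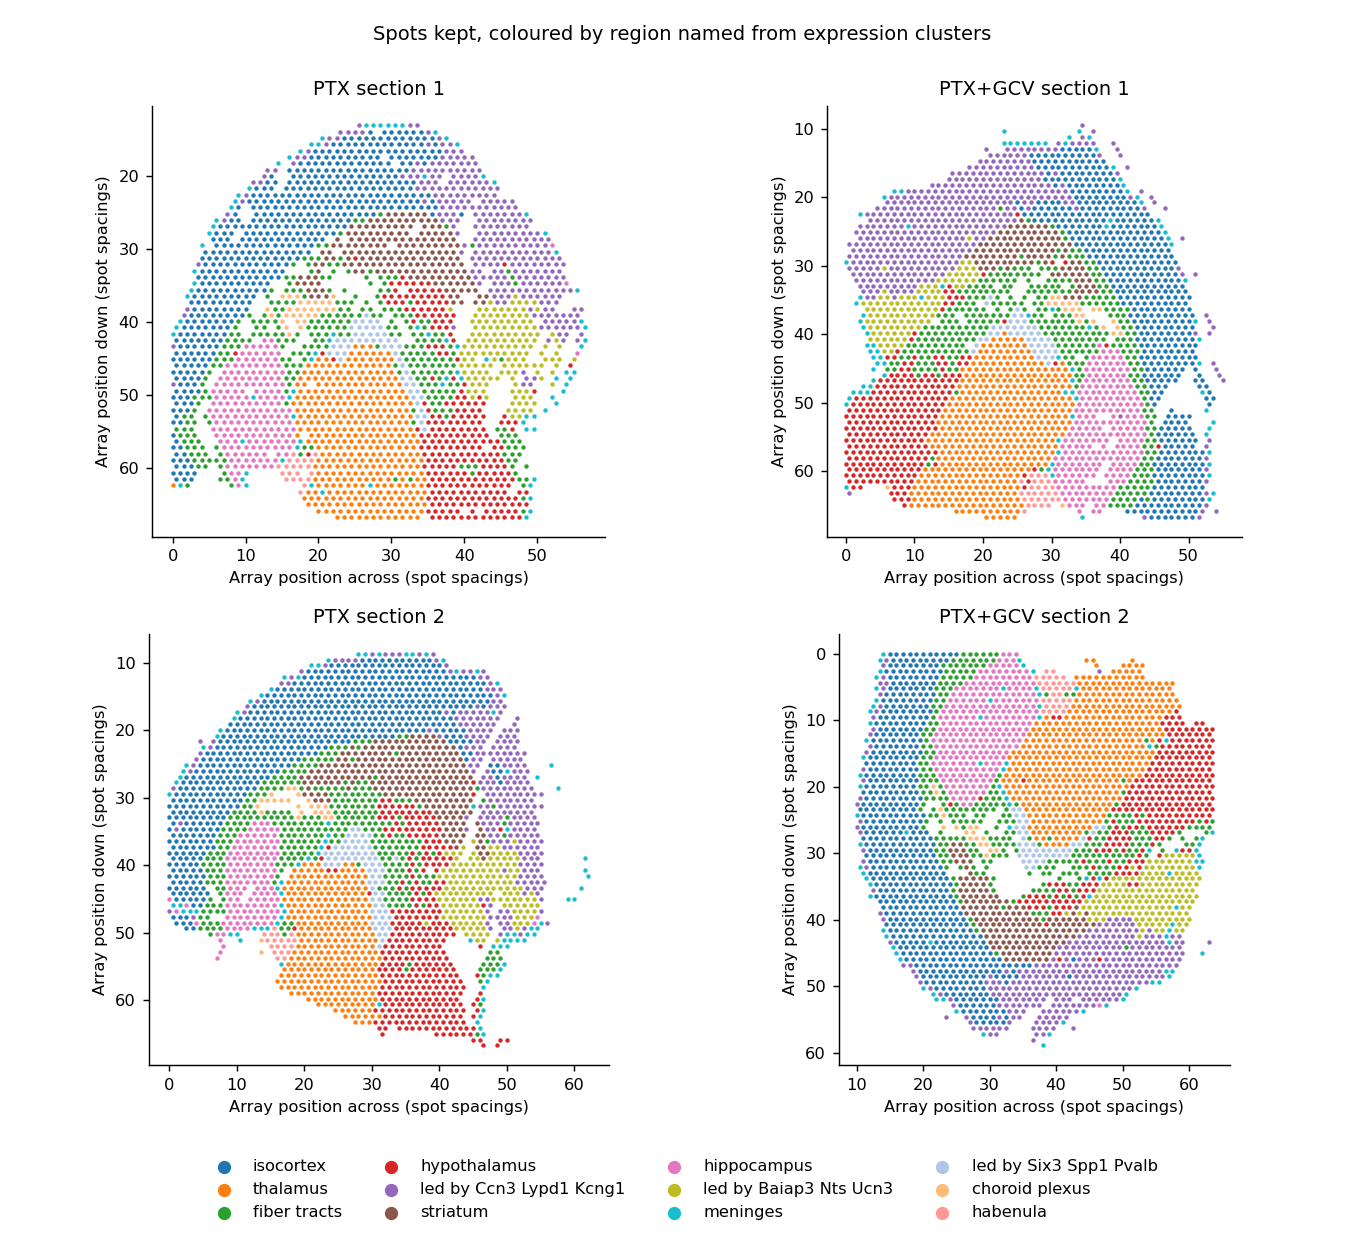
Positions of the kept spots on the array in the 4 compared sections, in units of the distance between spots, coloured by region. Each panel is 1 section, turned as it lay on its array, and the brown band of striatum is smaller in the PTX+GCV panels (106 and 162 spots) than in the PTX panels (186 and 246).

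The shares of spots by region differed between the sections of the 2 groups. The striatum held 7.27% and 8.99% of spots in PTX against 3.82% and 5.71% in PTX+GCV, the largest ratio between the group means among the 9 named regions. The hippocampus held 7.39% and 5.16% of spots in PTX against 8.61% and 9.40% in PTX+GCV, and the thalamus 15.4% and 11.7% of spots in PTX against 16.9% and 17.2% in PTX+GCV. By spots, PTX+GCV thus had less striatum and more hippocampus and thalamus in both sections than either PTX section. By UMIs, which the tests sum, the groups overlapped for hippocampus (10.1% and 6.58% in PTX, 8.89% and 10.9% in PTX+GCV). They also overlapped for thalamus (14.3% and 11.5% against 17.7% and 13.9%), hypothalamus and meninges. Striatum stayed lower by UMIs (5.15% and 8.20% against 2.93% and 4.34%), and isocortex was lower without overlap. The choroid plexus held 1.13% and 0.914% of spots in PTX against 0.829% and 0.634% in PTX+GCV, the habenula 0.821% and 0.695% of spots in PTX against 1.01% and 1.16% in PTX+GCV and the hypothalamus 10.8% and 12.8% of spots in PTX against 10.3% and 10.3% in PTX+GCV. The region led by Six3, Spp1 and Pvalb held 2.03% and 2.56% of spots in PTX against 1.51% and 1.48% in PTX+GCV, and the region led by Ccn3, Lypd1 and Kcng1 12.2% and 10.1% of spots in PTX against 16.5% and 12.3% in PTX+GCV. In 9 of the 12 regions the shares of spots of the 2 groups did not overlap. Isocortex, fiber tracts and the region led by Baiap3, Nts and Ucn3 overlapped. With 2 sections against 2, an exact two-sided permutation test cannot give a p below 0.3333, which is its value for each of these 9 regions, so no difference in share could pass a threshold of 0.05. The 2 Control sections differed as widely for the hippocampus, at 8.99% and 4.20% of spots, but lay close together for the striatum, at 6.14% and 6.50%.

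**Figure D2:**
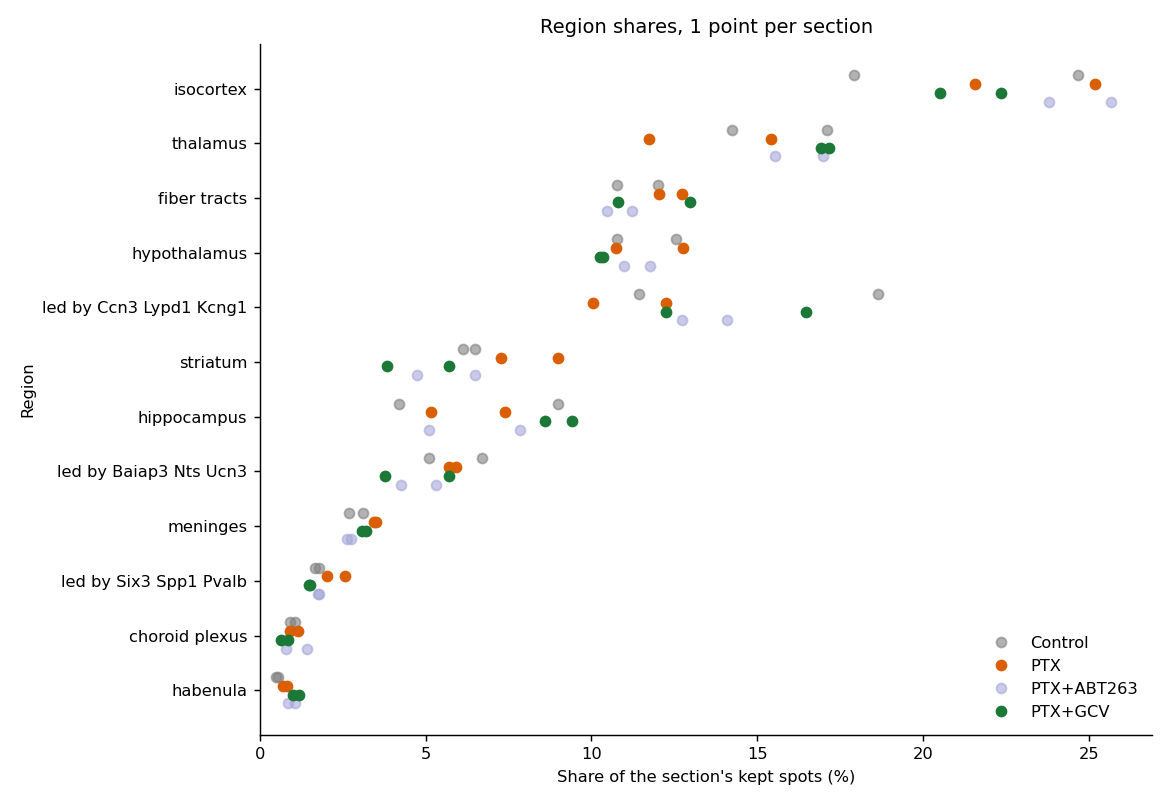
Share of kept spots (percent) in each of the 12 regions, 1 point per section. The 2 PTX+GCV points lie below both PTX points for striatum and above both for thalamus and hippocampus.

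Over the whole section 4 genes of 16671 differed between the groups at an adjusted p under 0.05, 2 higher and 2 lower in PTX+GCV. These are edgeR quasi-likelihood tests with Benjamini-Hochberg adjustment over all genes, and the background is 0.012% of genes higher and 0.012% lower. At an unadjusted p under 0.05 the fit gave 885 genes higher (5.31%) and 892 lower (5.35%), and DESeq2 called 33 higher (0.215%) and 49 lower (0.319%) of 15378, among them the same 4. Levels are given as CPM, the UMIs of a gene scaled to the same section total with edgeR's TMM factors. By these levels the 2 groups did not overlap for 40.8% of the 16671 genes, and for 32.1% to 41.9% of genes in the 10 regions tested.

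Pvalb, the calcium-binding protein of fast-spiking inhibitory neurons, stood at 285 and 321 CPM in PTX and at 173 and 193 CPM in PTX+GCV, beside 217 and 209 CPM in Control. Both PTX+GCV sections lay below all other sections, and Pvalb fell (log2 fold change -0.73, SE 0.08, adjusted p = 0.0242, edgeR). In none of the 10 regions tested did it pass. Its log2 fold changes were -0.51 in isocortex (SE 0.12), -1.07 in hypothalamus (SE 0.16, adjusted p = 0.0581), -0.85 in hippocampus (SE 0.19) and 0.16 in thalamus (SE 0.17). In the region led by Six3, Spp1 and Pvalb, where its level is highest, it stood at 4354 and 4359 CPM in PTX and 3297 and 4117 in PTX+GCV. The share of that region is also lower in PTX+GCV, as given above, and the difference in Pvalb computed from region shares alone was -0.34 on the log2 scale. Over the spots outside that region the log2 fold change was -0.50 and did not pass, an alternative added after seeing the data. With equal shares, meaning the same number of spots of every cluster in each section, the log2 fold change was -0.64 (adjusted p = 0.0109, edgeR). Equal shares evened spots and not UMIs. The median spot of the region led by Six3, Spp1 and Pvalb held 11660 and 10479 UMIs in PTX and 4362.5 and 3400 in PTX+GCV.

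Cpne6, a calcium-dependent membrane-binding protein of neurons, stood at 131 and 126 CPM in PTX and at 183 and 176 CPM in PTX+GCV, with 152 and 151 CPM in Control. The 2 PTX+GCV sections were the highest of all 8, and Cpne6 rose (log2 fold change 0.48, SE 0.06, adjusted p = 0.0417, edgeR). Its level was highest in the hippocampus, whose share of spots is higher in PTX+GCV while its share of UMIs overlaps between the groups. There it stood at 437 and 474 CPM in PTX and 597 and 511 CPM in PTX+GCV and did not pass (log2 fold change 0.28, SE 0.15). In the meninges it passed, with 63.7 and 68.4 CPM against 123 and 131 CPM (log2 fold change 0.95, SE 0.21, adjusted p = 0.0443, edgeR), a call lost without any one of the 4 compared sections (highest 0.618). The value computed from region shares for the whole section was 0.16, and with equal shares the log2 fold change was 0.40 (adjusted p = 0.0871, edgeR).

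Npvf encodes the precursor of RFamide-related peptides, made by a small group of hypothalamic neurons. PTX section 1 held 1 UMI of it and PTX section 2 also 1, against 106 and 111 in PTX+GCV. Control held 16 and 54, so of these 3 groups it was near 0 only in PTX. The ratio of PTX+GCV to PTX was 136 (exact 95% interval 37.1 to 1126, counting error only; adjusted p = 0.0417, edgeR). All but 7 and 3 of the UMIs in PTX+GCV lay in the hypothalamus region, where Npvf was also the only gene of 13036 that passed (0.00767%, adjusted p = 0.0135, edgeR). That call was lost without the same sections as the one over the whole section, PTX section 1, PTX section 2 or PTX+GCV section 1. The count in the hypothalamus depended on the sections fitted: the 4 compared sections alone gave 74 higher and 23 lower, and leaving out either Control section gave 58 and 19. With finer clusters 6 were higher and 0 lower, and with the section number as a replicate block 0 and 0. The fourth gene is the unnamed model 2900040C04Rik, which falls outside the naming rule and is given because only 4 passed. It is among the leading genes of the choroid plexus, which held 88.5% of its UMIs in Control. Levels were 8.68 and 7.65 CPM in PTX and 2.56 and 1.96 CPM in PTX+GCV (log2 fold change -1.88, SE 0.25, adjusted p = 0.0417, edgeR), and the groups did not overlap. The value computed from region shares was -0.84, and with equal shares of spots the log2 fold change was -1.40 (adjusted p = 0.0237, edgeR). The median choroid plexus spot held 9607 and 8962 UMIs in PTX and 3769 and 4345.5 in PTX+GCV, which equal shares did not even out. Of the 4 genes, Pvalb and 2900040C04Rik passed with equal shares and Cpne6 and Npvf did not.

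**Figure D3:**
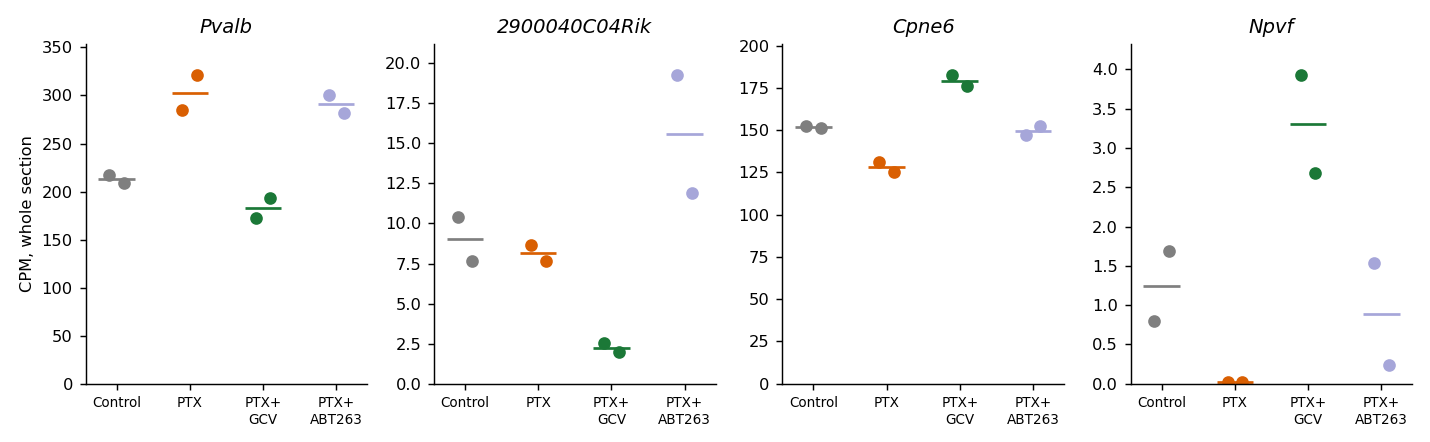
Level (CPM, TMM-scaled) of the 4 genes that passed the test over the whole section, 1 point per section for Control, PTX, PTX+GCV and PTX+ABT263, with a line at the group mean. The 2 PTX+GCV points lie apart from both PTX points for every gene, and Npvf is near 0 in both PTX sections.

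These 4 calls rest on few sections. Pvalb passed in 6 of the 8 fits that leave out 1 section and was lost without PTX section 2 or without PTX+GCV section 1 (highest adjusted p = 0.1999, edgeR). Npvf passed in 5 and was lost without PTX section 1, PTX section 2 or PTX+GCV section 1 (highest 0.291). Cpne6 and 2900040C04Rik passed in 4 and were lost without any one of the 4 compared sections (highest 0.285 and 0.223). Without the PTX+ABT263 pair the fit called 5 genes higher and 17 lower, the 4 among them.

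The genes next in rank by p were named by rule and did not pass. Higher in PTX+GCV were Rasal1, a Ras GTPase-activating protein (37.1 and 37.5 CPM in PTX, 57.5 and 49.8 CPM in PTX+GCV, adjusted p = 0.0519, edgeR), Myh7, a myosin heavy chain (adjusted p = 0.0519), and Eps8l2, an actin regulator (adjusted p = 0.0744). Lower were Gng11, a G protein gamma subunit found in vessels, Hist2h2aa1, a histone, and Spp1, osteopontin, with adjusted p = 0.0519, 0.0519 and 0.0519. The last of them is Sim1, a transcription factor of the paraventricular nucleus, at 1.77 and 1.78 CPM in PTX and 0.297 and 0.483 CPM in PTX+GCV (adjusted p = 0.0519). Myh7 and Eps8l2 had Control levels (27.4 and 31.4 CPM and 19.3 and 23.5 CPM) above those of PTX (14.8 and 14.3 CPM and 11.5 and 8.68 CPM).

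Several lists of genes that mark single regions leaned one way over the whole section. No gene of any list below passed over the whole section except Pvalb, so the lists are described by their members at an unadjusted p under 0.05 and by their median log2 fold change, beside 5.31% higher, 5.35% lower and a median of 0.00 over all genes. Of 23 choroid plexus genes 0 were higher and 19 lower, with a median of -0.93. They include Ttr, which carries thyroid hormone and stood at 2026 and 2792 CPM in PTX and 1104 and 990.1 CPM in PTX+GCV, and Calml4, Ecrg4 and Wfdc2 with log2 fold changes of -1.36, -1.30 and -1.26. Of 16 striatal genes, which mark medium spiny neurons and include the dopamine receptor genes Drd1 and Drd2, 15 were lower and 0 higher (median -0.60). Of 15 thalamic genes 9 were higher and 0 lower (median 0.38), among them Tnnt1, at 19.9 and 16.4 CPM in PTX and 48.7 and 29.3 CPM in PTX+GCV. Of 14 hippocampal genes 2 were higher and 0 lower (median 0.16).

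The sign of each of these 4 lists was that of its region's share of spots, which was smaller in PTX+GCV for choroid plexus and striatum and larger for thalamus and hippocampus. By UMIs the shares of thalamus and hippocampus overlapped between the groups. The difference that region shares alone would give was computed for every gene from its level by cluster in the Control sections and the shares of UMIs of 27 finer clusters in each compared section. Across 16671 genes the computed and the measured differences correlated with r = 0.3327 (Spearman's rho 0.363), a description across genes that share 4 sections. The computed differences were smaller, with an SD of 0.0569 against 0.321 on the log2 scale. Of the 1777 genes at an unadjusted p under 0.05, 1459 (82.1%) had the computed sign, against 62.9% of all genes. The computed median was -0.51 for the choroid plexus genes, -0.39 for the striatal, 0.18 for the thalamic and 0.08 for the hippocampal genes. When the same number of spots of each cluster was drawn from every section, these medians came to -0.58, -0.26, 0.15 and 0.01. All 4 medians were nearer 0 with equal shares than as measured and had the same sign. The draw evened the number of spots and not their UMIs, so depth by region still differed between sections.

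**Figure D4:**
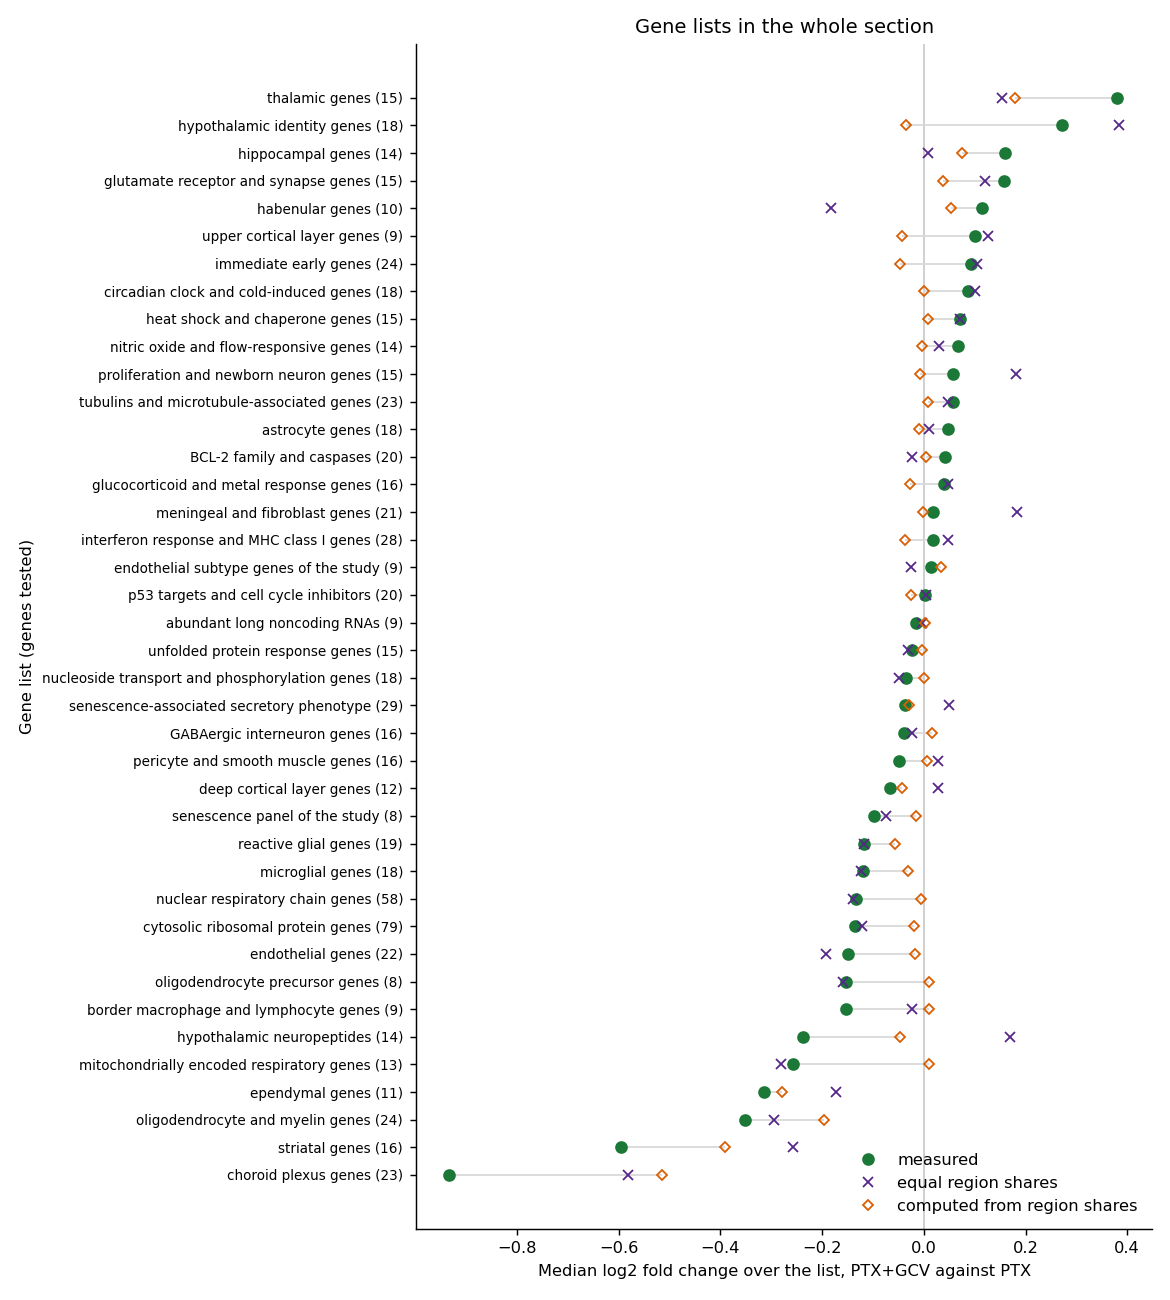
Median log2 fold change (PTX+GCV over PTX, whole section) of 40 gene lists as measured, with the same number of spots of every cluster (equal region shares), and as computed from region shares alone. Pituitary and haemoglobin genes lie beyond the axis and are left out, choroid plexus and striatal genes lie furthest below 0 and thalamic genes furthest above it as measured, and mitochondrial and ribosomal lists are below 0 as measured but near 0 as computed.

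Other lists leaned one way as well, with smaller computed differences. All 5 haemoglobin genes were lower at an unadjusted p under 0.05, with a median of -2.80 and a computed median of -0.13. Of 24 oligodendrocyte and myelin genes 18 were lower and 0 higher (median -0.35, computed -0.20). They include Mog, a protein of the outer myelin surface, at 70.1 and 85.9 CPM in PTX and 58.0 and 51.9 CPM in PTX+GCV, and Mal and Opalin with log2 fold changes of -0.44 and -0.57. The summed level of the myelin list overlapped between groups, at 6009 and 7922 CPM in PTX and 6075 and 4994 CPM in PTX+GCV. Of 58 nuclear genes of the respiratory chain 23 were lower (median -0.13), of 79 cytosolic ribosomal protein genes 26 (median -0.13) and of 13 mitochondrially encoded genes 5 (median -0.26), with 0 higher in each. Their computed medians were -0.01, -0.02 and 0.01. The share of mitochondrial UMIs was 12.7% in both PTX sections and 11.9% and 9.58% in PTX+GCV, so section 2 of PTX+GCV was the lowest. The median UMI count per spot was also lower in both PTX+GCV sections than in either PTX section, and its part in these lists was not tested.

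Within the regions the same test was run on the UMIs of each region that had 30 or more spots in every section, which 10 of the 12 had. The choroid plexus and the habenula did not. It gave 133 calls of 103 distinct genes, of which 91 were called in 1 region and 12 in more. Avp was lower in 5 regions, Pmch higher in 5, Hba-a1, Hba-a2 and Hbb-bs lower in 4, Hbb-bt lower in 3 and Hcrt higher in 3. The unnamed model Gm47283 was higher in 5 (named here after its values were seen). Avp, Pmch and Hcrt are products of hypothalamic neurons and the haemoglobin genes of red blood cells. DESeq2 also called 40 of the 133, while 50 did not pass in it and 43 had no adjusted p from it, 27 of them in the thalamus and 16 in the striatum. Its calls included all 4 of the hippocampus and 3 of 4 in the isocortex, but 21 of 51 in the striatum, 6 of 34 in the thalamus, 1 of 15 in the meninges, 2 of 12 in the region led by Ccn3 and 1 of 10 in the region led by Six3.

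The peptides of hypothalamic neurons differed many-fold between the groups. In the hypothalamus region vasopressin (Avp) stood at 2857 and 1114 CPM in PTX and at 32.3 and 52.2 CPM in PTX+GCV, and oxytocin (Oxt) at 488 and 1806 against 74.9 and 10.1 CPM. Melanin-concentrating hormone (Pmch) ran the other way, at 487 and 3.01 CPM in PTX and 6972 and 7947 CPM in PTX+GCV, as did orexin (Hcrt) at 121 and 10.6 against 2663 and 3680.4 CPM. For all 4 peptides the groups did not overlap, as was so for 40.1% of all genes tested in that region. None passed there (adjusted p = 0.267, 0.403, 0.386 and 0.422, edgeR). Control section 1 held 855 CPM of Avp, 5587 of Pmch and 3597 of Hcrt, and Control section 2 0.780, 454 and 1.30 CPM. The 2 Control sections thus lay as far apart as the groups compared for Avp and Hcrt. Cartpt, a peptide of several hypothalamic nuclei, stood at 95.8 and 101 CPM in PTX and 556 and 725 CPM in PTX+GCV (adjusted p = 0.452). Of 14 hypothalamic peptide genes tested there, 5 were higher and 3 lower at an unadjusted p under 0.05, and of 17 hypothalamic identity genes 7 and 3 (background 3.87% higher and 3.51% lower). Sim1, named above, stood at 8.79 and 5.78 CPM in PTX and 1.52 and 4.72 CPM in PTX+GCV there (adjusted p = 0.652), without overlap, though its level in PTX+GCV section 2 was close to that in PTX section 2. A finer clustering did not separate the nuclei, since 1 fine cluster was led by Pmch, Hcrt, Oxt and Avp together.

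**Figure D5:**
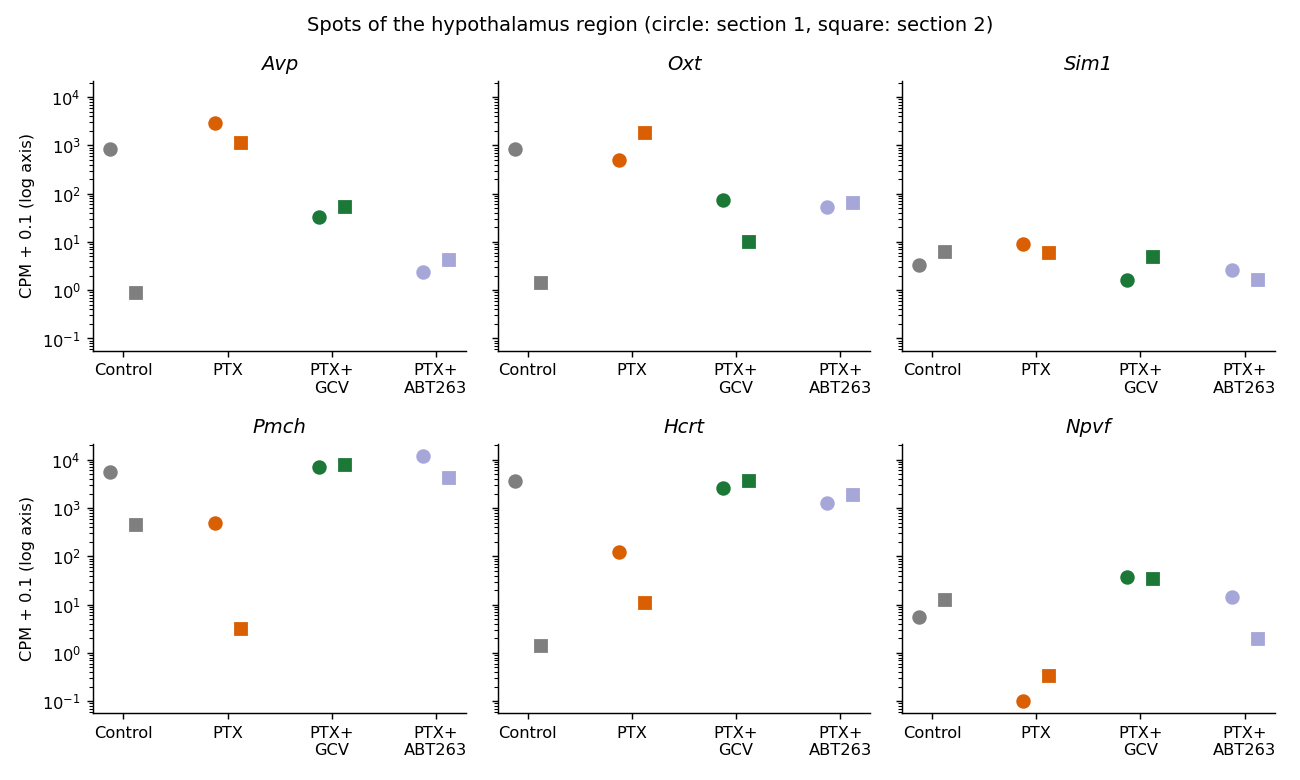
Level of 6 hypothalamic genes in the spots of the hypothalamus region, 1 point per section (CPM with 0.1 added, log axis). Avp and Oxt are high in PTX and low in PTX+GCV, Pmch, Hcrt and Npvf the reverse, Sim1 differs less, and the 2 Control sections lie far apart for Avp, Oxt and Hcrt.

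The same peptides differed in regions outside the hypothalamus region. Whether neurons that make them lay under spots of those regions was not tested. In the thalamus Oxt stood at 28.4 and 47.7 CPM in PTX and 0.855 and 0 CPM in PTX+GCV, and Avp at 24.8 and 35.0 against 1.50 and 1.95 CPM, and both fell (log2 fold change -6.50 and -4.06, adjusted p = 1.51e-04 for both, edgeR). Pmch rose there from 6.50 and 0.226 to 116 and 156 CPM (log2 fold change 5.14, SE 0.63, adjusted p = 8.63e-04), and Hcrt from 0.974 and 0.678 to 26.3 and 42.6 CPM (adjusted p = 0.00736). Levels in the thalamus were a small part of those in the hypothalamus and had its order of groups. Avp fell in isocortex, from 15.1 and 13.6 to 1.67 and 0.742 CPM (log2 fold change -3.69, SE 0.43, adjusted p = 7.31e-04), and was the 1 gene of 9918 called in the fiber tracts (0.0101% lower), at 186 and 84.2 against 5.12 and 4.68 CPM (log2 fold change -4.71, SE 0.63, adjusted p = 0.00835), a call lost with DESeq2 (adjusted p = 0.99995) and with finer clusters, where 0 genes passed. In the region led by Ccn3, Lypd1 and Kcng1 it fell from 17.2 and 27.6 to 2.98 and 2.39 CPM (adjusted p = 0.0247), and in the meninges it was 81.9 and 4838 CPM in PTX and 159 and 6.03 CPM in PTX+GCV, where the groups overlap and PTX section 2 sets the call. Without PTX section 2 the log2 fold change in the meninges was -0.31. With DESeq2 Avp did not pass in isocortex, the region led by Ccn3 or the meninges either (adjusted p = 0.347, 0.99994 and 0.99995). Control held 6.84 and 1.40 CPM of Avp in isocortex.

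Pmch behaved in the same way in the striatum, at 1.36 and 0 CPM in PTX and 23.8 and 61.3 CPM in PTX+GCV (adjusted p = 7.68e-04, edgeR). In the meninges it stood at 2.27 and 0 against 207 and 90.5 CPM, in the region led by Six3, Spp1 and Pvalb at 0 and 1.23 against 50.6 and 92.0 CPM, and it rose in both (adjusted p = 0.00104 and 6.00e-06). The PTX levels rest on 0 to 3 UMIs per section in these 3 regions, and both PTX+GCV sections were above both PTX sections in each. The ratio was 97.5 in the striatum (exact 95% interval 32.7 to 479, counting error only). Hcrt rose in the striatum from 0.453 and 0 to 17.8 and 28.0 CPM and in the meninges from 1.14 and 0 to 74.5 and 23.1 CPM (adjusted p = 9.33e-04 and 0.00207). The 2 Control sections also lay far apart. They held 47.4 and 0.640 CPM of Pmch in the striatum, 53.4 and 9.82 in the meninges and 47.6 and 3.90 in the region led by Six3. Their Hcrt stood at 38.3 and 0 CPM in the striatum and 26.7 and 0 in the meninges. Pmch in the region led by Six3 did not pass with DESeq2 (adjusted p = 0.99997). These calls for Pmch in thalamus, striatum, meninges and the region led by Six3, and those for Avp and Oxt in the thalamus, passed in all 8 fits that leave out 1 section. Hcrt in the thalamus was lost without PTX+GCV section 2 (highest adjusted p = 0.105) and in the striatum without PTX section 2 (0.0519). Pmch in the region led by Ccn3 was lost without PTX section 1, PTX section 2 or PTX+GCV section 2 (highest 0.672). Avp was lost without PTX+GCV section 1 in fiber tracts (0.0734), without PTX+GCV section 2 in isocortex (0.0961) and without any of the 4 compared sections in the region led by Ccn3 (0.786). As in the hypothalamus, both PTX sections were higher for Avp and Oxt, except for Avp in the meninges, and both PTX+GCV sections for Pmch and Hcrt. The part of RNA spread across the slide was not tested.

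Haemoglobin genes, which red blood cells carry, fell in several regions. In the hippocampus the 4 calls of 11970 genes (0.0334% lower) were Hbb-bs, Hba-a2, Hba-a1 and Hbb-bt, and no other gene passed. Hbb-bs stood at 247 and 356 CPM in PTX and at 0.845 and 8.48 CPM in PTX+GCV (log2 fold change -5.71, SE 0.35, adjusted p = 5.72e-07, edgeR), and Hba-a1 at 125 and 178 against 0.422 and 3.79 CPM (log2 fold change -5.83, SE 0.41, adjusted p = 1.25e-06). Control held 14.0 and 5.42 CPM of Hbb-bs and the pair labelled PTX+ABT263 3.35 and 3.16 CPM, so the 2 PTX sections stood above the other 6. All 4 calls passed in all 8 fits that leave out a section. In the meninges Hba-a1 fell from 189 and 697 to 26.2 and 9.05 CPM (log2 fold change -4.85, SE 0.48, adjusted p = 3.22e-07), and in the striatum Hbb-bs from 17.2 and 121 to 0 and 1.61 CPM (adjusted p = 0.00184), a ratio of PTX to PTX+GCV of 63.7 (exact 95% interval 21.6 to 309.9, counting error only) on 3 UMIs in PTX+GCV. Most of the striatal UMIs were of PTX section 2, and the call was lost without it (adjusted p = 0.164). Control held 99.8 and 48.6 CPM there and the pair labelled PTX+ABT263 23.8 and 0 CPM, so PTX section 1 lay below both Control sections and below PTX+ABT263 section 1. In the thalamus Hbb-bs stood at 507 and 222 against 111 and 44.6 CPM and did not pass (adjusted p = 0.0741), nor did it in the hypothalamus, at 4.63 and 14.1 against 6.84 and 1.89 CPM. Over the whole section it was 166 and 169 CPM in PTX, 26.5 and 21.2 in PTX+GCV, 39.2 and 32.0 in Control and 60.1 and 3.58 in the pair labelled PTX+ABT263. The mice were perfused before the brains were taken, and how much blood was left was not measured. Endothelial genes, markers of the vessel wall, did not move as far: of 22, 7 were lower and 0 higher at an unadjusted p under 0.05, with a median of -0.15.

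Growth hormone (Gh), a hormone of the pituitary, held 111 and 298 UMIs in PTX and 0 in both PTX+GCV sections. It fell in the meninges, where PTX held 62 and 189 UMIs, so that PTX was at least 73.5-fold higher against a floor of 3 UMIs over both PTX+GCV sections (adjusted p = 6.65e-04, edgeR). It also fell in the region led by Ccn3, Lypd1 and Kcng1 (adjusted p = 0.0253, at least 13.0-fold), where the call was lost without any of the 4 compared sections (highest 0.786). Control held 14 and 232 UMIs in all. Gh was among the leading genes of the meninges cluster.

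Choroid plexus RNA showed both directions outside the choroid plexus. In the choroid plexus spots Ttr stood at 218700.0 and 230840.0 CPM in PTX and 168130.0 and 251940.0 CPM in PTX+GCV (scaled by totals, since this region was not tested), and the groups overlapped. There were 29 and 25 such spots in PTX and 23 and 18 in PTX+GCV. In the isocortex Ttr fell from 915 and 931 to 113 and 206 CPM (log2 fold change -2.52, SE 0.30, adjusted p = 7.31e-04, edgeR) and Ecrg4, a secreted peptide of the choroid plexus, from 8.08 and 6.27 to 1.25 and 1.48 CPM (log2 fold change -2.36, SE 0.30, adjusted p = 0.00186). Of 17 choroid plexus genes tested in the isocortex 13 were lower and 0 higher at an unadjusted p under 0.05 (background 3.49%), with a median of -1.68. In the region led by Six3, Spp1 and Pvalb Ttr ran the other way, at 184 and 232 CPM in PTX and 2217 and 307 CPM in PTX+GCV (log2 fold change 2.60), where it rests on PTX+GCV section 1 and was 0.52 without it (adjusted p = 0.806). In the meninges Ttr fell from 771 and 1036 to 279.9 and 199 CPM (log2 fold change -1.94, SE 0.34, adjusted p = 0.00413), lost without PTX+GCV section 2 (0.210). The call in the isocortex passed in all 8 fits that leave out a section, while Ecrg4 was lost without PTX section 1 or either PTX+GCV section (highest 0.0961).

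Isocortex had 4 calls of 14336, all lower (0.0279%): Ttr, Avp, Ecrg4 and Pde10a. Pde10a, a phosphodiesterase of striatal neurons, stood at 47.1 and 43.3 CPM in PTX and 26.0 and 28.0 CPM in PTX+GCV (log2 fold change -0.73, SE 0.12, adjusted p = 0.0292) and was lost without any of the 4 compared sections (highest 0.357). All 4 are thus markers of other regions. Of 9 upper and 12 deep layer genes none passed there.

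The striatum held the most calls, 28 higher and 23 lower of 11114 genes (0.252% and 0.207%). Among the genes lower in PTX+GCV were 12 of the 13 mitochondrially encoded respiratory genes, which code for subunits of the respiratory chain and ATP synthase, with a median log2 fold change of -0.56 over the 13. mt-Co2, a subunit of cytochrome oxidase, stood at 20580.0 and 20212 CPM in PTX and 13340.0 and 12023 CPM in PTX+GCV (log2 fold change -0.69, SE 0.10, adjusted p = 2.42e-04, edgeR). mt-Nd4, of complex I, stood at 14816 and 14031 against 9354 and 8672 CPM (log2 fold change -0.68, SE 0.09, adjusted p = 2.42e-04), and mt-Atp6, of ATP synthase, at 30707 and 30006 against 20625 and 19048 CPM (log2 fold change -0.61, SE 0.09, adjusted p = 2.42e-04). Both PTX+GCV sections were below the other 6 sections for these 3 genes. The 3 calls, like those of mt-Nd2, mt-Nd1, mt-Cytb, mt-Co1 and mt-Co3, passed in all 8 fits that leave out a section. Mitochondrial genes held 18.8% and 18.6% of striatal UMIs in PTX and 14.1% and 13.2% in PTX+GCV. Spots above 30% had been left out, over the whole section 8 and 28 in PTX and 46 and 2 in PTX+GCV. The striatum was not fitted without that filter. The median striatal spot held 12408 and 12824 UMIs in PTX and 7039 and 10034 in PTX+GCV, and the part of depth in these differences was not tested. Of 58 nuclear respiratory genes 20 were lower and 0 higher at an unadjusted p under 0.05 (background 4.21%), and none passed. In the isocortex 5 of the 13 mitochondrial genes were lower at that level.

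Genes of the medium spiny neurons were also lower inside the striatum. Of 16 striatal genes 11 were lower and 0 higher at an unadjusted p under 0.05, with a median of -0.45, and 1 passed, Scn4b. This sodium channel subunit stood at 407 and 432 CPM in PTX and 125 and 324 CPM in PTX+GCV (log2 fold change -0.82, SE 0.19, adjusted p = 0.0441, edgeR) and passed in only 2 of the 8 fits that leave out a section. Ppp1r1b, the dopamine-regulated phosphoprotein DARPP-32, stood at 1272 and 1491 against 747 and 1139.6 CPM and did not pass (adjusted p = 0.0576). For both genes PTX+GCV section 1 was far lower than section 2.

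Genes higher in the striatum of PTX+GCV were led by Cpne7, a copine, at 11.8 and 5.10 CPM in PTX and 80.9 and 28.0 CPM in PTX+GCV (log2 fold change 2.57, SE 0.37, adjusted p = 2.42e-04, edgeR) and Atp2b4, a calcium pump of the plasma membrane, at 40.8 and 24.5 against 153 and 67.8 CPM (log2 fold change 1.67, SE 0.24, adjusted p = 2.64e-04). PTX+GCV section 1 was the highest of all 8 sections for both, while section 2 lay between the Control sections for Cpne7 and below both for Atp2b4. Both passed in all 8 fits that leave out a section. Vip, a peptide of cortical interneurons, stood at 4.53 and 3.19 against 13.1 and 18.8 CPM (adjusted p = 0.00786; lost without PTX section 2 or PTX+GCV section 2), and Hap1 and Baiap3, which mark hypothalamic and neighbouring nuclei, rose as well (log2 fold change 0.97 and 1.43; lost without PTX section 2 or PTX+GCV section 1). Vip, Hap1 and Baiap3 were picked from the 28 higher genes outside the naming rule for regions. All 5 genes had higher levels in Control than in PTX. The striatal counts depend on the sections: without PTX+GCV section 2 the fit gave 131 higher and 142 lower, and over the 8 fits it gave 3 to 131 higher and 9 to 142 lower. In that region the shares of 27 finer clusters gave almost no computed difference (SD 0.0119 against 0.370 measured on the log2 scale, r = 0.0279 across genes).

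In the thalamus 24 genes were higher and 10 lower of 13136 (0.183% and 0.0761%). The make-up of this region differed between sections, most of all in PTX section 2. A finer cluster led by Gbx2, Tcf7l2 and Shox2 held 46.2% and 60.4% of its spots in PTX and 42.1% and 43.3% in PTX+GCV. Another, led by Prkcd, Rab37 and Synpo2, held 38.8% and 27.4% against 42.3% and 43.5%. Differences computed from these shares had an SD of 0.0365 against 0.324 measured (r = 0.0728 across genes). The part of this make-up in the calls was not tested. Kcnab3, a potassium channel subunit, stood at 26.3 and 26.0 CPM in PTX and 59.2 and 54.9 CPM in PTX+GCV (log2 fold change 1.12, SE 0.15, adjusted p = 0.00228, edgeR), and Car7, a carbonic anhydrase of neurons, at 25.0 and 18.5 against 41.2 and 45.8 CPM (log2 fold change 0.98, SE 0.14, adjusted p = 0.00513). In PTX both genes were below every other section, and Control stood at 66.8 and 57.1 CPM and 48.6 and 52.2 CPM. Slc17a7, the vesicular glutamate transporter that thalamus shares with cortex, stood at 191 and 119 against 293 and 276 CPM (log2 fold change 0.87, SE 0.15, adjusted p = 0.0135). Tnnt1, a thalamic marker, stood at 109 and 109.8 against 231 and 182 CPM (log2 fold change 0.92, SE 0.17, adjusted p = 0.0195) and was the 1 of 15 thalamic genes that passed. Of these 15, 10 were higher and 0 lower at an unadjusted p under 0.05 (background 5.68%), with a median of 0.29. Lower was Gstp1, a glutathione transferase, at 108 and 139 CPM in PTX and 66.5 and 75.9 CPM in PTX+GCV (log2 fold change -0.79, SE 0.12, adjusted p = 0.00513). Of 79 ribosomal protein genes 55 were lower and 0 higher at an unadjusted p under 0.05 (background 5.61%), with a median of -0.31. The 1 that passed was Rpl10, at 397 and 436 CPM in PTX against 289 and 283 CPM in PTX+GCV, with 219 and 272 CPM in Control (log2 fold change -0.54, SE 0.11, adjusted p = 0.0395). For Gstp1 and Rpl10 the PTX sections were the highest of the 8. Kcnab3 passed in all 8 fits that leave out a section. Car7 was lost without PTX+GCV section 2, Gstp1 without PTX+GCV section 1, Tnnt1 without PTX section 2 or PTX+GCV section 1, and Slc17a7 and Rpl10 without PTX section 2 or either PTX+GCV section (highest adjusted p = 0.373, for Tnnt1 and Rpl10). Without PTX section 1 the fit gave 144 genes higher and 127 lower.

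Fewer genes passed in the remaining regions. In the meninges 5 were higher and 10 lower of 8571 (0.0583% and 0.117%). DESeq2 called 1 of these 15, Hbb-bt, and its adjusted p was 0.244 for Hba-a1, 0.308 for Pmch, 0.462 for Gh and 0.99995 for Hcrt and for Ttr. Beside the peptide, haemoglobin and choroid plexus genes, Dcn, decorin of the fibroblast matrix, fell from 207 and 179 to 103 and 88.5 CPM (log2 fold change -1.04, SE 0.22, adjusted p = 0.0301, edgeR), and the myelin genes Bcas1 and Pllp from 117 and 155 to 74.5 and 49.3 and from 114 and 90.2 to 54.4 and 42.2 CPM (adjusted p = 0.0119 and 0.0301). Of 24 oligodendrocyte and myelin genes 15 were lower there at an unadjusted p under 0.05 (background 3.02%). Hpcal4, a neuronal calcium sensor, rose from 204 and 253 to 401 and 401 CPM (adjusted p = 0.0239). Dcn, Pllp and Hpcal4 were lost without any of the 4 compared sections (highest 0.601, 0.716 and 0.677), and Bcas1 without PTX section 2 or PTX+GCV section 2 (0.702). Meninges made up 3.44% and 3.51% of spots in PTX and 3.21% and 3.06% in PTX+GCV.

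The region led by Six3, Spp1 and Pvalb had 42 to 70 spots per section, 9 genes higher and 1 lower of 7254 (0.124% and 0.0138%). Cdr1os, a noncoding RNA of neurons, stood at 42.5 and 56.5 CPM in PTX and 236 and 123 CPM in PTX+GCV (log2 fold change 1.84, SE 0.28, adjusted p = 1.60e-05, edgeR) and was lost without PTX+GCV section 1 (adjusted p = 0.440). Lars2, a mitochondrial tRNA synthetase, stood at 124 and 172 against 782 and 147 CPM and Cck, cholecystokinin, at 133 and 89.6 against 281 and 215 CPM (adjusted p = 2.73e-05 and 0.00205). Without PTX+GCV section 1 Lars2 had a log2 fold change of -0.05, and Cck was lost too. Sst, somatostatin of inhibitory neurons, fell from 1294 and 2019.9 to 911 and 1068 CPM (log2 fold change -0.75, SE 0.15, adjusted p = 0.00316), lost without PTX section 2 (0.590). The region led by Ccn3, Lypd1 and Kcng1 had 3 higher and 9 lower of 13287 (0.0226% and 0.0677%). Etv1, a transcription factor of deep cortical layers, rose there from 63.5 and 62.0 to 112 and 93.3 CPM (log2 fold change 0.70, SE 0.10, adjusted p = 0.00609) and Crtac1, an extracellular matrix protein, fell from 81.7 and 89.2 to 51.3 and 57.3 CPM (log2 fold change -0.65, SE 0.10, adjusted p = 0.00609). Both were lost without PTX section 1, PTX section 2 or PTX+GCV section 1 (highest 0.294), and PTX stood apart from the 6 other sections for both. Sim1 fell there from 4.70 and 6.02 to 0.175 and 0.133 CPM (adjusted p = 0.00332, lost without PTX section 2), with 0 UMIs in Control. The ratio of PTX to PTX+GCV was 34.2 (exact 95% interval 9.05 to 289, counting error only). In the region led by Baiap3, Nts and Ucn3 the 1 call of 11955 (0.00836%) was Cmbl, a hydrolase, at 24.6 and 19.3 against 88.4 and 59.3 CPM (adjusted p = 0.0186), which passed in 3 of the 8 fits. The 4 compared sections alone gave 53 higher and 24 lower in that region, 68 and 28 without Control section 1, and 67 and 31 without Control section 2.

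Genes linked to p16, senescence and nucleoside handling had no call in edgeR over the whole section. Cdkn2a, the gene of p16, held 17 and 10 UMIs in PTX and 3 and 4 in PTX+GCV, or 0.396 and 0.262 against 0.114 and 0.104 CPM scaled by totals. Both PTX+GCV sections lay below both PTX sections and near Control (0.101 and 0.151 CPM), but the gene did not pass the filter on low counts. With no filter its log2 fold change was -1.63 and did not pass after adjustment (unadjusted p = 0.0178, adjusted p = 0.2995, edgeR). Of the 8 other genes of a senescence panel that could be tested, 0 passed in edgeR, 0 were at an unadjusted p under 0.05 and 0 passed in DESeq2. Cdkn1a, the cell cycle inhibitor p21, stood at 11.7 and 14.7 CPM in PTX and 10.6 and 17.98 CPM in PTX+GCV (log2 fold change 0.14, SE 0.20), and Trp53, p53, at 17.8 and 17.0 against 17.8 and 15.4 CPM (log2 fold change -0.07, SE 0.11). The groups overlapped for Cdkn1a. Among 29 tested genes whose products senescent cells are known to secrete, 1 was higher and 4 lower at an unadjusted p under 0.05, 0 passed in edgeR, and DESeq2 called Spp1 lower. Spp1 is also a leading gene of the region whose share was smaller, and inside that region it stood at 639 and 352 CPM in PTX and 422 and 534 CPM in PTX+GCV, overlapping. Of 20 p53 target and cell cycle inhibitor genes 1 was higher and 0 lower at that level, and of 18 mouse genes listed for nucleoside transport and phosphorylation 0 and 1. Neither list had a call in edgeR or DESeq2.

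Among the lists for glia and vessels no gene passed over the whole section in edgeR, while DESeq2 called 4 oligodendrocyte and myelin genes and 1 oligodendrocyte precursor gene lower. Of 18 microglial genes 0 were higher and 4 lower at an unadjusted p under 0.05 (median -0.12), and DESeq2 called 1 lower. In the hypothalamus 8 of 18 were lower (median -0.30). Of 18 astrocyte genes 1 was higher and 1 lower (median 0.05), of 16 pericyte and smooth muscle genes 0 and 0, and of 21 meningeal and fibroblast genes 1 and 1. In the fiber tracts 3 of 24 oligodendrocyte and myelin genes were lower and 0 higher (background 2.13%), with a median of -0.18. Of 28 interferon response and MHC class I genes 2 were higher and 3 lower. Synaptic genes leaned the other way: of 15 glutamate receptor and synapse genes 2 were higher and 0 lower over the section (median 0.16), and in the thalamus 8 were higher and 1 lower, with Slc17a7 the 1 that passed.

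The PTX sections enter both this comparison and that with Control, so values are given side by side only. Against Control, PTX differed by a log2 fold change of 0.51 for Pvalb (adjusted p = 0.0431, edgeR), -0.24 for Cpne6 (0.143), -0.48 for Rasal1 (0.0436) and -1.02 for Myh7 (0.00496). For PTX+GCV against Control the values were -0.22, 0.24, 0.05 and -0.38, with adjusted p = 0.381, 0.256, 0.855 and 0.242.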

How the data were processed

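Fresh-frozen coronal cryosections were profiled on Visium arrays, in 4 groups of 2 sections given by the labels. The authors deposited raw UMI counts per gene and spot, made with Space Ranger on mm10 (the file headers give its version as 1.2.1), and the submitters' processing notes name Seurat 4.0 for later steps. No other normalization was applied to the deposited counts.

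UMIs were summed per section over spots with 200 or more genes and at most 30% mitochondrial UMIs. Section numbers were not taken as pairs (correlation of deviations -0.0025 for PTX and PTX+GCV). Sums entered edgeR 4.0.16 (TMM, filterByExpr, quasi-likelihood test, Benjamini-Hochberg over all genes) with all 8 sections, testing PTX+GCV minus PTX. The SE is the log2 fold change divided by the root of F. DESeq2 1.42.0 was an alternative. Regions came from Seurat 5.3.0 (SCTransform, 2000 integration features, 20 principal components, resolution 0.15, and 1 for the 27 finer clusters). A cluster was named with 3 or more fixed markers among its 20 leading genes, and 1 of 13 clusters was kept apart by its leading genes. Equal shares used 1856 spots per section, and computed differences a prior of 1 CPM. The scripts were tested on simulated data. The 8 sections held 19870666 to 42886400.0 UMIs, and intervals and floors cover counting error only.

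Named genes were up to 15 per direction over the whole section (or the 5 with the smallest p where few passed), 3 per direction and region and 4 per list, from 42 lists, leaving out unnamed models. Some called genes are named outside this rule, among them Vip, Baiap3, Lars2, Cck, Bcas1, Pllp and Pcp4. They do not stand for the other calls of their regions. Members and lists were chosen with earlier results of these data known. Alternatives covered the tool, scaling, filters, sections, anatomy and block.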

Additional observations from a re-analysis of the deposited data

Results flagged for a closer look

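Choroid plexus and neuronal genes passed the test in opposite directions in different regions, and these differences between regions were themselves not tested. Ttr, the choroid plexus transthyretin, had log2 fold changes of -2.52 in the isocortex, -1.94 in the meninges and 2.60 in the region led by Six3, Spp1 and Pvalb. Pcp4, a calmodulin regulator of neurons, had 1.2002 in the region led by Six3, Spp1 and Pvalb and -0.72 in the striatum, with both PTX+GCV sections on the same side of both PTX sections in each. Both Pcp4 calls were lost without PTX section 2 or PTX+GCV section 1 (highest adjusted p = 0.573 and 0.603, edgeR) and with DESeq2 (adjusted p = 0.99997 and 0.845). The Ttr call in the region led by Six3, Spp1 and Pvalb was lost without PTX+GCV section 1 (adjusted p = 0.806, edgeR) and with DESeq2 (0.99997), the one in the meninges without PTX+GCV section 2 (0.2103) and with DESeq2 (0.99995), while the one in the isocortex passed in all of these.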

How the results depend on the processing

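Over the whole section the counts of genes past an adjusted p of 0.05 (2 higher and 2 lower) depended on most choices. DESeq2 gave 33 and 49, total-count scaling 20 and 16, no filter on low counts 280 and 267, the 4 compared sections alone 24 and 32, and the 6 sections without PTX+ABT263 5 and 17. Leaving out 1 section gave 0 to 28 higher and 0 to 22 lower. Thinning to equal totals left 1 lower and equal region shares gave 5 lower. With alternatives added after seeing the data, 1 was higher outside the hypothalamus, and 1 was lower outside the choroid plexus and 1 outside the region led by Six3, Spp1 and Pvalb. With the section number as a replicate block 0 genes were higher and 2 lower, and since same-numbered sections of PTX and PTX+GCV did not deviate together (r = -0.0025) the numbers do not pair them. Summed over the 10 regions tested, the 71 higher calls became 46 with DESeq2 and 195 with the 4 compared sections, and 28 to 219 without 1 section. DESeq2 also called 40 of the 133, and 43 had no adjusted p from it. The 62 lower calls became 49 with DESeq2, 114 with the 4 compared sections and 35 to 179 without 1 section. The number of regions with shares of spots that do not overlap was 9, and 10 to 12 without 1 of the 4 compared sections, which is a looser condition. Of the fitted log2 fold changes of named genes under the alternatives, 1514 kept their direction and side of the threshold, 396 lost the call, 68 gained it and 9 changed sign. Among these was Chek1 when thinned (0.18). The others came from leaving out 1 section, namely Lars2 in the region led by Six3, Spp1 and Pvalb (-0.054 without PTX+GCV section 1, range to 2.35), Trp53 (0.037 without PTX+GCV section 2, from -0.17), Chek1 (0.64 without PTX section 1, from -0.68), Chek2 (0.090 without PTX section 2 and 0.16 without PTX+GCV section 2, from -0.54), Tnfrsf10b (-0.061 without PTX section 2, to 1.73) and Cdkn1a (-0.018 without PTX section 1 and -0.31 without PTX+GCV section 2, to 0.45). The cause was not tested. With 2 sections a group, and 42 to 70 spots a section in the region led by Six3, Spp1 and Pvalb, small differences were not detectable. Cdkn2a did not pass the filter on low counts.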
